A study of Homo sapiens with 8 samples.

Results

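The 32 genes described here encode proteins that build the mitotic spindle, attach it to chromosomes and divide the cell. They were chosen by name as mitosis and kinetochore genes, and each was represented by its transcript with the largest span from start to end. All 32 were found among the 19351 gene names of the deposited tables and all passed the filter on low counts. Human fetal lung fibroblasts of the line MRC5, called MRC5_VA in the study's methods and immortalized with SV40, were either wild type (WT) or knocked down (KD) for *ZFAS1*, a long noncoding RNA. The methods describe a lentiviral short hairpin RNA for the knockdown, and the labels do not say whether WT cells carried a control hairpin. All groups first spent 3.5 h in 100 µM DRB, which stops RNA polymerase II near gene starts. The medium with DRB was then removed from every group, and cells of the UV groups received UV-C at 10 J/m2. After a wash, cells were kept in fresh medium without DRB for 10 or 40 min, and GRO-seq was run on their nuclei. In GRO-seq the polymerases engaged on genes extend their RNA, here for 5 min, and that RNA is sequenced. WT or KD, no UV or UV, and 10 or 40 min gave 8 groups with 1 library each, so no condition was repeated and no value below carries a replicate error of its own. The p-values rest on the spread left between these 8 libraries, which may be technical.

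Mitotic genes are transcribed mainly in late S, G2 and M phases. In resting and G1 cells the DREAM complex, which holds E2F4 and the DNA-binding protein LIN54, sits on their promoters and keeps them low, and later in the cycle its MuvB core works with B-MYB and then FOXM1 to turn them on. LIN54 contacts a short promoter element called the CHR, often placed close to boxes bound by the factor NF-Y. SV40 large T antigen binds the retinoblastoma family of proteins, through which DREAM is assembled, and also p53, so these cells model the regulation of mitotic genes in untransformed fibroblasts only in part. In a bulk culture, fewer cells in G2 and M and less transcription per cell cannot be told apart.

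Promoter sequence was taken from RefSeq on GRCh38.p14 for the window from 250 bases before to 50 bases after the transcription start. Of the 32 genes 27 had a matching entry, and *AURKA*, *TTK*, *TPX2*, *BIRC5* and *UBE2C* did not. A CHR was searched as TTTGAA or TTCGAA and an NF-Y box as CCAAT, each on both strands, and no motif contains another. At least 1 CHR match was found in 20 of the 27 windows (74.1%), against 12.3% of the windows of 13125 tested genes and 16.4% of 35116 RefSeq windows of the same length. An NF-Y box match was found in 21 (77.8%), against 36.2% and 34.6%. Both were found in 16 (59.3%), against 5.16% and 6.38%. These are matches to letters and not shown to be bound sites. The 130 bases before the start are printed below for 7 genes with matches on either strand in capitals. *CCNB2*, *PLK1*, *CDC25C* and *PRC1* show a CHR match about 20 to 30 bases before the start with NF-Y boxes further out, *KIF20A* is the gene with the largest knockdown by UV term, and *BUB1B* and *SPC24* are the genes that departed from the others.
CCNB2, chr15:59105016-59105145 (+ strand): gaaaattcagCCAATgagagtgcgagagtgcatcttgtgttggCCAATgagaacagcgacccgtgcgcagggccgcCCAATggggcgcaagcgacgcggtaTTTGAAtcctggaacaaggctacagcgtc
PLK1, chr16:23678759-23678888 (+ strand): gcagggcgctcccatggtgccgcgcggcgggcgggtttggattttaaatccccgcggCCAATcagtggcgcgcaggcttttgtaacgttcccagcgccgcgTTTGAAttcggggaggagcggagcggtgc
CDC25C, chr5:138331805-138331934 (- strand): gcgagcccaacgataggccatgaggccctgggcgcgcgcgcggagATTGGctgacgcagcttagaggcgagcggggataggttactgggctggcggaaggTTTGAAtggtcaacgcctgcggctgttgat
PRC1, chr15:90994536-90994665 (- strand): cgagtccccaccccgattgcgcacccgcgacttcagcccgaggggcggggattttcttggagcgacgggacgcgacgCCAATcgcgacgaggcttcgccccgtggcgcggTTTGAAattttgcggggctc
KIF20A, chr5:138178982-138179111 (+ strand): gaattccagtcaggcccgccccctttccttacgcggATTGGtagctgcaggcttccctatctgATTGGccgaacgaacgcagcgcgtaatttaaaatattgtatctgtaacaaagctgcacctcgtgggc
BUB1B, chr15:40160939-40161068 (+ strand): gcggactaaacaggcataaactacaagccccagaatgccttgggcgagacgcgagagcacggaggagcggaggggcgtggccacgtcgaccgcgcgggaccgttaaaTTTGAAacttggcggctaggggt
SPC24, chr19:11155783-11155912 (- strand): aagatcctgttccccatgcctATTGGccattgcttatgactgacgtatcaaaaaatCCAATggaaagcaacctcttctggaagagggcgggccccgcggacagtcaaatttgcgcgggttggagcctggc
In *CCNB2* the CHR match began 29 bases before the start and the nearest NF-Y box 54 bases before it. *PLK1* had its CHR match at the same distance of 29 bases and 1 NF-Y box at 73. *KIF20A* had 2 NF-Y boxes and no CHR match in the window, *BUB1B* had a CHR match and no NF-Y box, and *SPC24* had 3 NF-Y boxes and no CHR match. Among the 9 called genes of the knockdown by UV term described below that had an entry, 5 held a CHR match and 8 an NF-Y box.

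**Figure D1:**
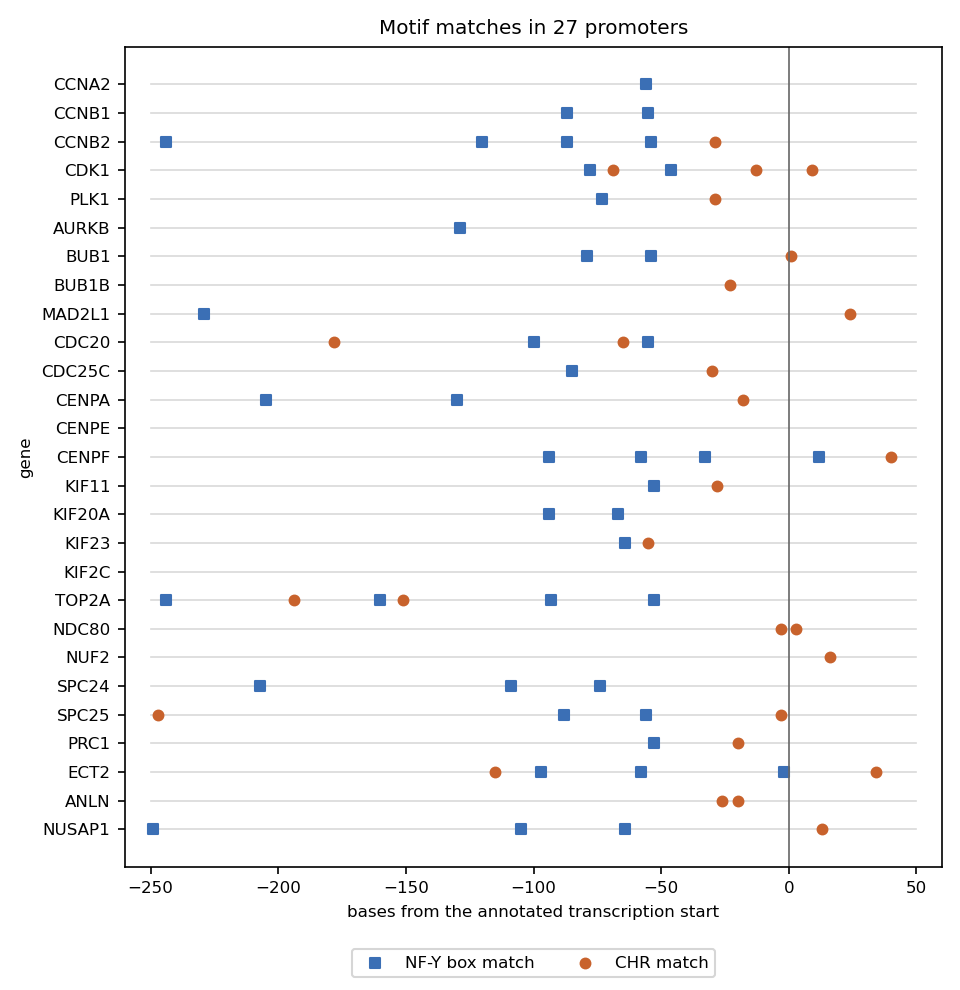
Position of each motif match in the 27 promoters with an entry, in bases from the annotated transcription start (0). Circles are CHR matches and squares NF-Y box matches on either strand. Of the 27 genes, 16 have both kinds and *CENPE* and *KIF2C* have neither.

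The libraries held 10228672 to 21077842 reads over genes, of which 0.219 to 0.480% lay in the 32 genes. Fibroblast markers were read in every library, with all 9 at a mean of at least 1 CPM per kb (CPM are read counts scaled to library size) and a median of 1.68 to 3.42 CPM per kb, while the medians of epithelial, endothelial and immune markers stayed under 0.866 CPM per kb. *ZFAS1* itself was higher in the libraries labelled KD in 3 of the 4 pairs, at 712 and 1596 CPM against 507 and 1789 CPM in WT without UV (10 and 40 min) and 694 and 922 against 635 and 586 CPM after UV. Its KD over WT difference was 0.21 on the log2 scale (edgeR quasi-likelihood test, adjusted p = 1.00). Nascent reads do not measure the decay of finished RNA that a hairpin causes, so this checks the labels in neither direction. The tables came in 2 orders of transcripts, 1 shared by the WT no UV and KD UV libraries and the other by the WT UV and KD no UV libraries. That split is the knockdown by UV term, so how the tables were made and this term cannot be told apart. The term would keep its value if the labels WT UV and KD no UV were exchanged, whereas KD over WT without UV and UV over no UV in WT would trade places, and nascent *ZFAS1* reads do not check these labels. Read density over *OR51B5*, an olfactory receptor gene used as a silent locus, was 0.211 and 0.105 CPM per kb in WT no UV, 0.291 and 0.215 in WT UV, 0.353 and 0.293 in KD no UV and 0.259 and 0.186 in KD UV. At that density 2.24 to 16.3% of the reads of the 32 genes would be background, with the highest share in KD no UV at 10 min. This estimate rests on 1 gene, the only olfactory receptor gene that the search by name found. At the density of 39 beta-defensin genes, chosen after seeing the data, the share would be 0.238 to 2.76%.

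The summed level of the 32 genes was highest in WT no UV at both times, and lowest in KD no UV at 10 min and in WT UV at 40 min. It was 4021 and 4889 CPM in WT no UV at 10 and 40 min, 2606 and 3112 CPM in WT UV, 1888 and 3515 CPM in KD no UV, and 3458 and 4497 CPM in KD UV. KD no UV at 10 min was the lowest library for 18 of the 32 genes and KD no UV at 40 min for another 7. WT no UV at 40 min was the highest for 14 genes and KD UV at 40 min for 11. Per kb of span, mean levels over the 8 libraries ran from 0.438 CPM per kb for *CDC25C*, which encodes a phosphatase that activates CDK1, to 11.2 CPM per kb for *ANLN*, which encodes the actin-binding protein anillin of the cleavage furrow, a ratio of 25.7. Next below *ANLN* stood *CCNB1* with 7.50 and *TOP2A* with 7.36 CPM per kb, whose ranges over the libraries overlapped.

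**Figure D2:**
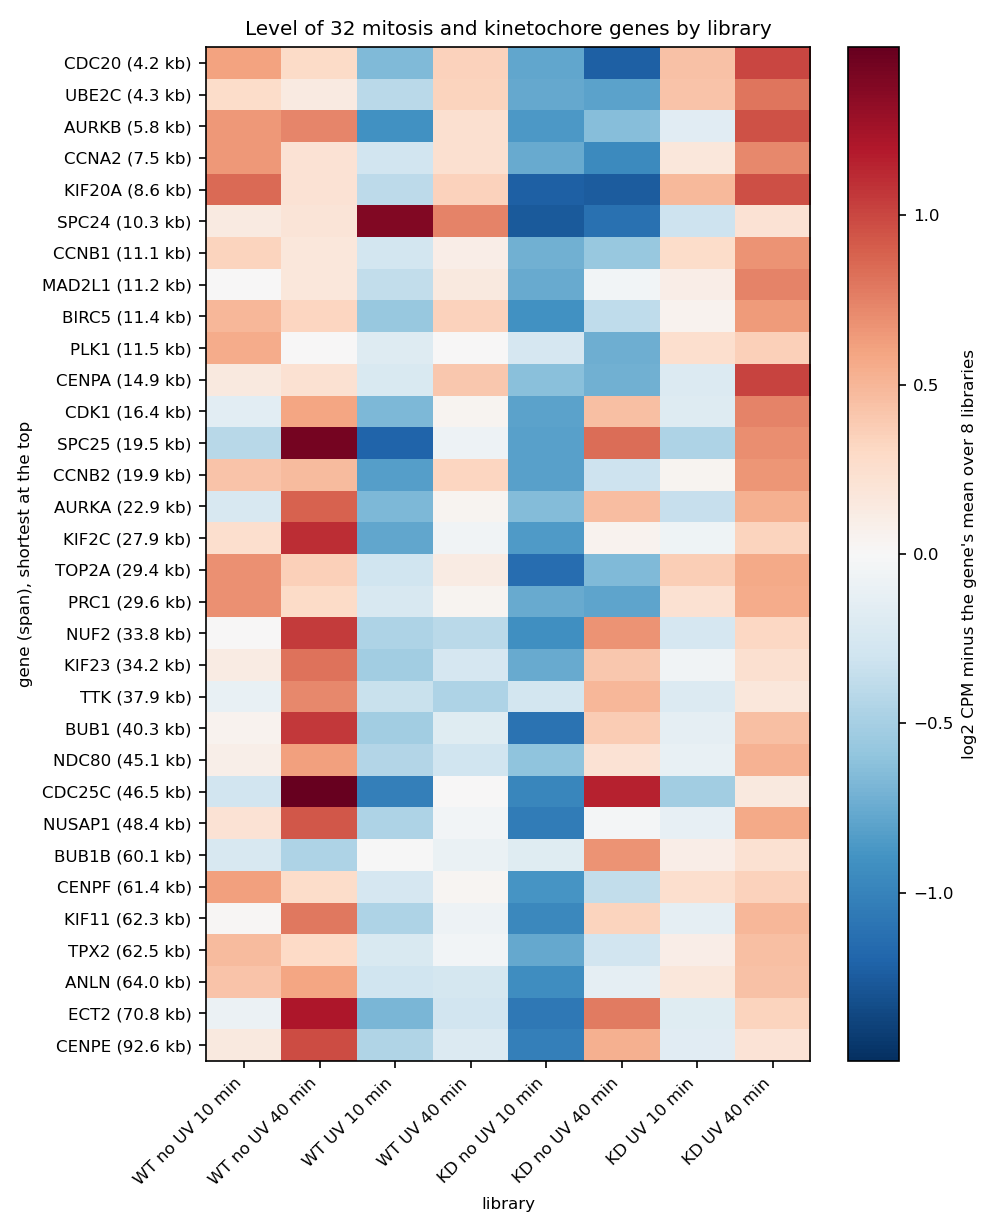
Level of each gene in each library as log2 CPM minus the mean of that gene over the 8 libraries (colour), with genes in order of span from 4.2 to 92.6 kb. Both KD no UV columns are blue for most short genes, while for most genes over 15 kb the KD no UV column at 40 min is red.

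Whether UV changes the difference between KD and WT cells was asked with the knockdown by UV term, which is KD over WT with UV minus KD over WT without UV on the log2 scale. The term was positive for 31 of the 32 genes, with a median of 1.30 against 0.11 over all 17840 genes tested. It was called positive at an adjusted p under 0.05 for 10 genes, *KIF20A*, *CDC20*, *AURKB*, *TOP2A*, *PRC1*, *CCNA2*, *KIF2C*, *UBE2C*, *CCNB2* and *NUSAP1*, and negative for 0. Over all genes 5.04% were called positive. KD was below WT in both pairs without UV and above WT in both pairs after UV for 30 of the 32 genes, against 34.1% of all genes tested, the exceptions being *BUB1B* and *SPC24*. Taken at each time from its 4 libraries, the term had a median of 1.52 at 10 min and 1.10 at 40 min over the 32 genes, against 0.21 and 0.10 over all genes, and 31 of 32 were positive at each time.

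Of the 9 motor, spindle and cytokinesis genes 4 were called, among them *KIF20A*, which had the largest term of the 32 genes. *KIF20A* encodes a kinesin of the central spindle needed for cytokinesis and read 60.7 and 39.1 CPM in WT no UV (10 and 40 min), 25.7 and 43.0 in WT UV, 14.5 and 14.2 in KD no UV, and 47.3 and 66.0 in KD UV. Both KD no UV libraries lay below every other library. Its term was 2.54 ± 0.51 (standard error, edgeR quasi-likelihood test, adjusted p = 0.042). *PRC1*, whose product bundles antiparallel microtubules of the midzone, read 151 and 115 CPM in WT no UV, 79.9 and 96.8 in WT UV, 55.7 and 54.5 in KD no UV, and 110 and 138 in KD UV. Again the KD no UV pair lay below the rest, and the term was 1.77 ± 0.46 (edgeR, adjusted p = 0.043). *KIF2C* encodes a kinesin that takes microtubules apart at centromeres and read 60.4 and 109.7 CPM in WT no UV, 29.6 and 49.1 in WT UV, 28.1 and 52.8 in KD no UV, and 48.5 and 63.8 in KD UV. For this gene WT UV and KD no UV had like levels at each time, and the term was 1.63 ± 0.43 (edgeR, adjusted p = 0.043). *NUSAP1*, a spindle microtubule binding protein, read 101 and 165 CPM in WT no UV, 63.2 and 84.6 in WT UV, 42.0 and 85.1 in KD no UV, and 80.3 and 129 in KD UV, with a term of 1.58 ± 0.44 (edgeR, adjusted p = 0.045). Here KD no UV was level with WT UV at 40 min and below it at 10 min. The other 5 genes of this group, *KIF11*, *KIF23*, *TPX2*, *ECT2* and *ANLN*, were not called and had terms of 1.09 to 1.59. *ANLN* had the highest level of all 32, at 918 and 1028 CPM in WT no UV, 558 and 569 in WT UV, 361 and 624 in KD no UV, and 769 and 927 in KD UV. *KIF11*, the motor that pushes spindle poles apart, read 169 and 290 CPM in WT no UV, 121 and 159 in WT UV, 85.8 and 212 in KD no UV, and 153 and 237 in KD UV. In both genes KD no UV was lowest at 10 min but not at 40 min.

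Both genes that act on the anaphase-promoting complex, the ubiquitin ligase that ends mitosis, were called. *CDC20*, its activator and the target of the spindle checkpoint, read 26.2 and 21.1 CPM in WT no UV, 10.9 and 21.9 in WT UV, 10.1 and 7.39 in KD no UV, and 23.4 and 34.6 in KD UV. KD no UV was lowest at both times and WT UV at 10 min was close to it. The term was 2.26 ± 0.54 (edgeR, adjusted p = 0.042). *UBE2C*, the ubiquitin-conjugating enzyme of that complex, read 25.9 and 23.6 CPM in WT no UV, 16.2 and 26.9 in WT UV, 12.6 and 12.3 in KD no UV, and 28.8 and 37.5 in KD UV, with a term of 1.62 ± 0.46 (edgeR, adjusted p = 0.046). KD UV was above every other group at both times.

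Of the chromosome passenger genes, *AURKB*, the kinase that corrects faulty spindle attachments, read 25.01 and 26.3 CPM in WT no UV, 8.51 and 18.7 in WT UV, 8.76 and 10.2 in KD no UV, and 14.2 and 30.7 in KD UV. Its term was 2.17 ± 0.51 (edgeR, adjusted p = 0.042), and WT UV at 10 min was as low as the KD no UV pair. *BIRC5*, which encodes survivin of the same complex, read 60.1 and 53.3 CPM in WT no UV, 28.7 and 54.1 in WT UV, 22.6 and 32.6 in KD no UV, and 44.2 and 66.2 in KD UV. Its term of 1.53 ± 0.47 missed the threshold (edgeR, adjusted p = 0.052). *TOP2A*, the topoisomerase that untangles sister chromatids, read 322 and 255 CPM in WT no UV, 162 and 218 in WT UV, 90.6 and 127 in KD no UV, and 258 and 297 in KD UV. Its KD no UV pair lay below all other libraries and the term was 1.99 ± 0.48 (edgeR, adjusted p = 0.042).

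Among cyclins and mitotic kinases 2 of 7 were called. *CCNA2*, cyclin A of S and G2 phases, read 53.0 and 39.2 CPM in WT no UV, 27.8 and 40.0 in WT UV, 20.1 and 17.5 in KD no UV, and 37.9 and 55.7 in KD UV, with a term of 1.76 ± 0.48 (edgeR, adjusted p = 0.044). Of its span 6.22% is shared with *EXOSC9* on the opposite strand. *CCNB2*, a cyclin B partner of CDK1, read 35.0 and 36.1 CPM in WT no UV, 14.7 and 32.4 in WT UV, 14.8 and 21.0 in KD no UV, and 26.7 and 41.2 in KD UV, with a term of 1.60 ± 0.47 (edgeR, adjusted p = 0.048). The KD no UV pair lay below all other libraries for *CCNA2*, and below all but WT UV at 10 min for *CCNB2*. *CCNB1*, the main mitotic cyclin, read 100.2 and 89.6 CPM in WT no UV, 65.8 and 85.4 in WT UV, 48.3 and 53.8 in KD no UV, and 96.4 and 127 in KD UV. Its term of 1.47 ± 0.44 missed the threshold (edgeR, adjusted p = 0.051). *CDK1*, the kinase that cyclin B activates, read 92.2 and 156 CPM in WT no UV, 64.6 and 107 in WT UV, 59.2 and 142 in KD no UV, and 90.2 and 173 in KD UV. Its 40 min libraries were all above its 10 min libraries, whatever the cell or the irradiation. *PLK1*, a kinase of mitotic entry and centrosome maturation, read 41.1 and 28.1 CPM in WT no UV, 24.5 and 28.0 in WT UV, 23.5 and 16.9 in KD no UV, and 33.4 and 35.7 in KD UV, so that without UV it was lower at 40 than at 10 min in both kinds of cells. The terms of *PLK1*, *CDK1*, *CDC25C* and *AURKA* were 0.82 to 1.16.

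None of the 4 spindle checkpoint genes or the 7 centromere and kinetochore genes was called, where 5.04% of all genes were called positive. With so few genes this does not set these roles apart. Their median terms were 0.78 and 1.10, against 0.11 over all genes. *BUB1*, *MAD2L1* and *TTK*, which sense unattached kinetochores, had terms of 1.38, 1.02 and 0.55. *BUB1* read 85.6 and 171 CPM in WT no UV, 57.3 and 72.9 in WT UV, 38.3 and 107 in KD no UV, and 75.1 and 113 in KD UV. *TTK*, the checkpoint kinase also called MPS1, read 62.1 and 111 CPM in WT no UV, 53.4 and 48.8 in WT UV, 55.5 and 94.8 in KD no UV, and 58.5 and 75.4 in KD UV. At 10 min its 4 libraries lay within 53.4 and 62.1 CPM, the narrowest range of the checkpoint genes. The fourth checkpoint gene, *BUB1B*, encodes BUBR1, an inhibitor of CDC20, and was the only gene of the 32 with a negative term, -0.41 ± 0.50 (edgeR, adjusted p = 0.55). It read 243 and 209 CPM in WT no UV, 285 and 267 in WT UV, 253 and 456 in KD no UV, and 308 and 336 in KD UV. Its level was highest in KD no UV at 40 min and lowest in WT no UV at 40 min. *CENPA*, the centromeric histone variant, *CENPE*, a kinetochore motor, and *CENPF*, a large outer kinetochore protein, had terms of 1.21, 1.10 and 1.49. *NDC80*, *NUF2* and *SPC25*, subunits of the NDC80 complex that grips microtubules, had terms of 1.10, 1.02 and 1.26. *SPC24*, the remaining subunit, read 23.1 and 24.0 CPM in WT no UV, 55.0 and 35.2 in WT UV, 8.76 and 9.66 in KD no UV, and 17.0 and 24.3 in KD UV. It was highest in WT UV, where 30 of the other 31 genes were lower than without UV at 10 min, and its term was 0.23 ± 0.48 (edgeR, adjusted p = 0.73).

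**Figure D3:**
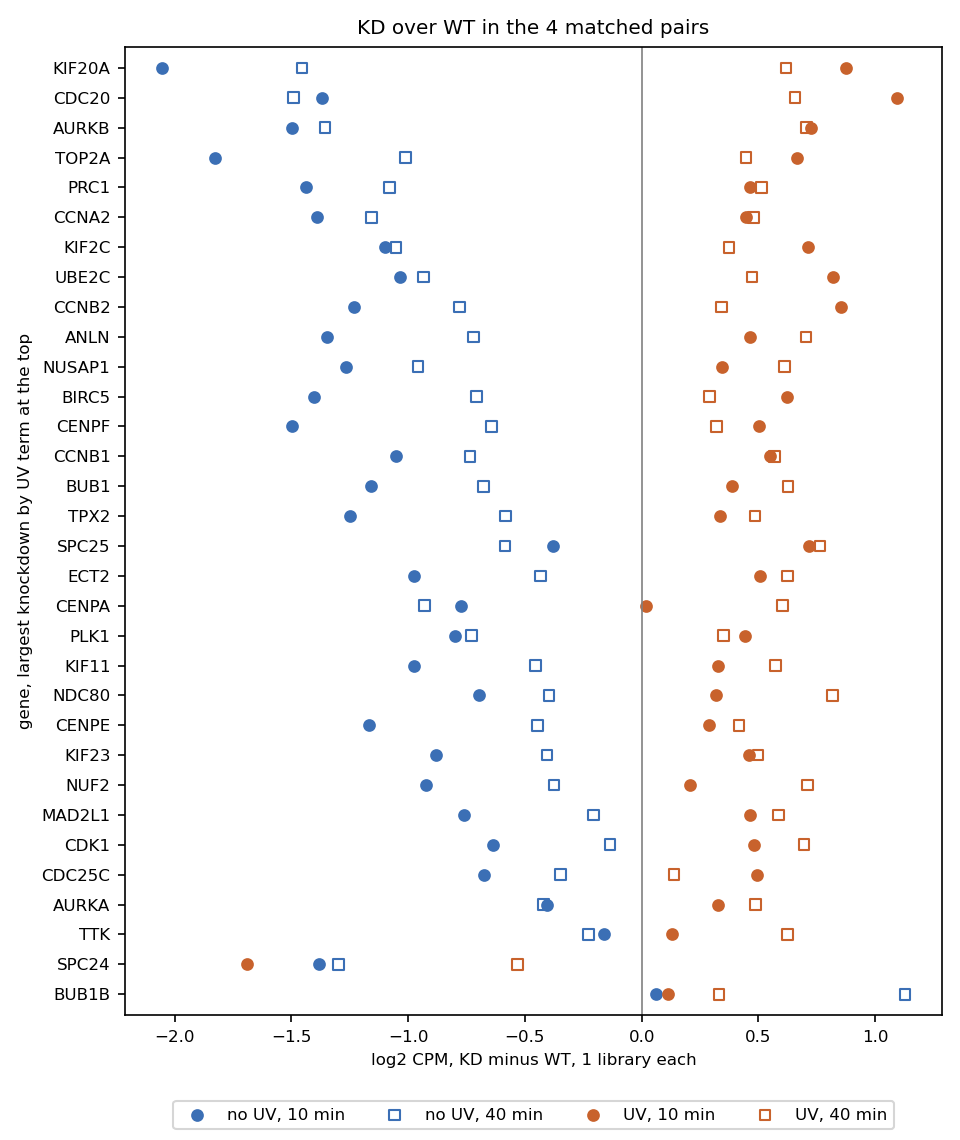
KD over WT of each gene as a difference of log2 CPM between 1 KD and 1 WT library, in the pairs without UV (blue) and after UV (orange) at 10 min (filled circles) and 40 min (open squares), with the largest knockdown by UV term at the top. For 30 genes the blue points lie left of 0 and the orange points right of it, and *SPC24* and *BUB1B* at the bottom depart from this.

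The calls on this term did not hold under every setting. Without any 1 of the 4 KD libraries none of the 32 genes was called, where 0 to 0.0392% of all genes were called positive. Without WT UV at 10 or 40 min 5 and 9 were called, against 3.11 and 5.69% of all genes. Without WT no UV at 10 or 40 min 14 and 15 were called, against 10.1 and 11.3% of all genes. The median over the 32 genes stayed between 1.16 and 1.42. With the density of *OR51B5* subtracted 0 were called, as were 0% of all genes, and the median was 0.92. With the lower density of 39 beta-defensin genes subtracted, an alternative chosen after seeing the data, 4 were called, where 2.38% of all genes were called positive. Under the *OR51B5* setting *TTK* and *SPC24* turned negative, at -0.05 and -0.15, and *SPC25* and *CDC25C* moved to 4.49 and 3.60. In KD no UV at 10 min *SPC25* and *CDC25C* held 76 and 106 reads over 19.5 and 46.5 kb. The density subtracted there was 3.76 reads per kb, which *SPC25* barely exceeded and *CDC25C* did not reach.

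**Figure D4:**
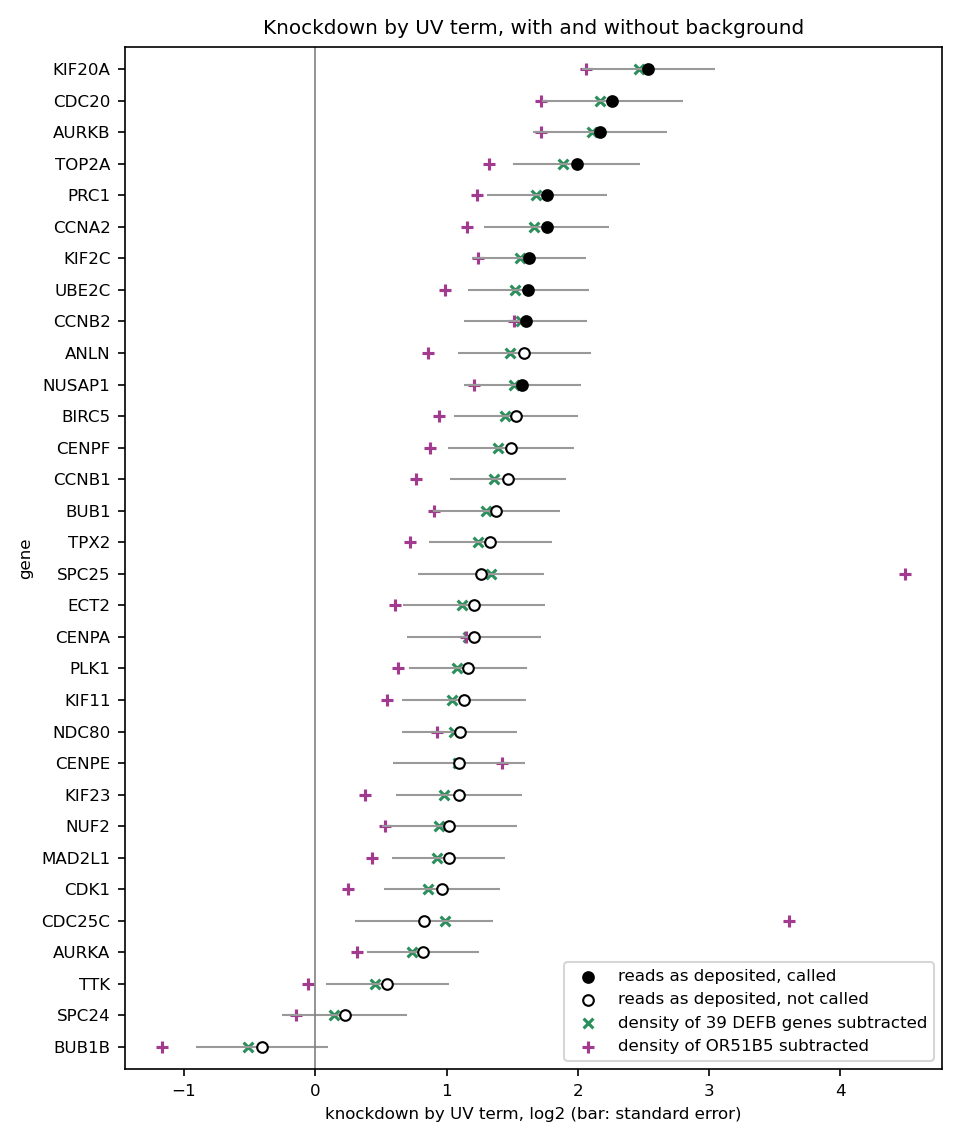
Knockdown by UV term of each gene on the log2 scale, from the reads as deposited (circles, with bars of 1 standard error from edgeR, filled where called) and after subtracting the read density of 39 beta-defensin genes (crosses) or of *OR51B5* (plus signs). The 10 filled circles lie between 1.58 and 2.54.

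Without UV, the 32 genes were lower in KD than in WT cells. KD over WT was negative for 31 of the 32, with a median of -0.90 against -0.03 over all genes, and 10 genes were called lower and 0 higher, where 5.5% of all genes were called lower. *KIF20A* fell by 1.81, *AURKB* by 1.45, *TOP2A* by 1.44, *CDC20* by 1.43, *SPC24* by 1.35, *CCNA2* by 1.30, *PRC1* by 1.28, *NUSAP1* by 1.11, *BIRC5* by 1.09 and *KIF2C* by 1.08 on the log2 scale. Their adjusted p-values in edgeR were 0.035 to 0.048. The difference was larger at 10 min than at 40 min, with medians of -1.08 and -0.69, and *BUB1B* was the exception with 0.62 ± 0.36 (edgeR, adjusted p = 0.22). By role, both passenger genes, *TOP2A*, 1 of 2 genes of the anaphase-promoting complex and 4 of 9 motor, spindle and cytokinesis genes were called, with 1 of 7 each among cyclins and kinases and among kinetochore genes, and 0 of 4 checkpoint genes. Without the KD no UV library at 10 min, or the one at 40 min, 0 of the 32 genes and 0% of all genes were called lower. With the *OR51B5* density subtracted 0 of the 32 and 0% of all genes were called lower, and the median was -0.59. Markers of cell types moved in the same contrast, with medians of -1.28 over 9 fibroblast markers (5 called lower), 0.66 over 7 epithelial markers (2 called higher and 1 lower), 1.21 over 6 endothelial markers (1 called higher) and 1.21 over 5 immune markers (1 called higher and 1 lower). Over all genes 1204 of 17840 were called higher. Median densities over the libraries were 0.155 to 0.250 CPM per kb for epithelial, 0.155 to 0.865 for endothelial and 0.033 to 0.294 for immune markers. *OR51B5* had 0.105 to 0.353 CPM per kb and was itself denser in KD no UV than in WT no UV. What background reads add to these marker medians was not tested. The 30 DNA replication and G1/S genes had a median of -0.94 with 9 called lower. The part of these lists in the result was not tested.

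After UV the same difference pointed the other way but was smaller and was not called for any of the 32 genes. Over all genes 22 of 17840 were called lower. KD over WT was positive for 31 of 32 genes with a median of 0.48, against 0.09 over all genes, and 0% of all genes were called higher. Of the 32 genes 3 had an unadjusted p under 0.05 (edgeR), as did 4.27% of all genes, and DESeq2 also called 0. The medians were 0.46 at 10 min and 0.54 at 40 min. *SPC24* was the exception, with -1.69 at 10 min and -0.53 at 40 min.

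Within each kind of cell, UV went with lower levels in WT and higher levels in KD cells, again with none of the 32 genes called. In WT cells 30 of 32 genes were lower after UV, *BUB1B* and *SPC24* being higher, with a median of -0.63 against 0.04 over all genes, and 0.0112% of all genes were called lower. In KD cells 29 of 32 were higher, with a median of 0.80 against 0.02, and 0% of all genes were called higher. At an unadjusted p under 0.05 in edgeR there were 13 of the 32 genes in WT and 18 in KD cells, against 29.4 and 16.8% of all genes in either direction. DESeq2 called 11 lower in WT and 7 higher in KD cells, where it called 7.94% of all genes lower in WT and 4.49% higher in KD cells. Medians of the fibroblast, epithelial, endothelial and immune markers were -0.23, 0.71, 0.99 and 1.14 in WT cells and 0.82, -0.10, -0.49 and -0.35 in KD cells, with 0 markers called in either and 5 of 9 fibroblast markers at an unadjusted p under 0.05 in KD cells (edgeR). Epithelial and immune markers were near the *OR51B5* density, as given above. The part of the markers in these differences was not tested. UV was below no UV in both WT pairs and above it in both KD pairs for 17 of 32 genes, against 18.7% of all genes. The 4 contrasts share libraries, so they are different views of the same 8 values of each gene. Averaged over both kinds of cells, neither UV over no UV nor KD over WT gave a call among the 32 genes or among all genes tested. Their medians over the 32 genes were 0.07 and -0.20, against 0.12 and 0.04 over all genes. Each had 1 of the 32 genes at an unadjusted p under 0.05 (edgeR), against 1.7 and 0.471% of all genes.

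The time after DRB release was compared to see how far polymerases had moved into these genes, since release starts a wave of elongation that reaches the end of short genes first. From 10 to 40 min the level was higher for 31 of 32 genes in the additive fit, with a median of 0.49 against -0.10 over all genes, but none was called, where 0.146% of all genes were called higher. At an unadjusted p under 0.05 there were 8 (edgeR), against 21.9% of all genes, and DESeq2 called 4 higher, against 8.54% of all genes. The values were largest for *SPC25* (1.46 ± 0.35, edgeR adjusted p = 0.058), *CDC25C* (1.38 ± 0.35, edgeR adjusted p = 0.065) and *ECT2* (0.99 ± 0.37, edgeR adjusted p = 0.15), the last an activator of RhoA in cytokinesis. *SPC25* read 8.08 and 29.0 CPM in WT no UV, 4.70 and 10.2 in WT UV, 6.16 and 19.3 in KD no UV, and 7.81 and 17.5 in KD UV. *CDC25C* read 13.8 and 47.6 CPM in WT no UV, 8.33 and 16.9 in WT UV, 8.60 and 37.4 in KD no UV, and 11.8 and 18.7 in KD UV. In both genes each 40 min library was above its 10 min partner, as was so for 17 of the 32 genes against 27.7% of all genes. When table order entered the model as a covariate, which this comparison allows, 11 of the 32 genes were called higher at 40 min, as were 16.6% of all genes.

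Without UV the step from 10 to 40 min was larger in longer genes of the 32, and after UV it was not, with Spearman correlations with span of 0.40 in WT and 0.65 in KD cells without UV and of -0.49 and -0.25 after UV. The 11 genes of up to 15 kb had a median step of -0.16 in WT and -0.03 in KD cells without UV, and the 11 genes over 40 kb had 0.71 and 1.02. After UV the short genes had 0.62 and 0.55, and the long genes 0.28 and 0.52. Over all genes tested the same medians without UV were -0.64 and -0.27 for genes up to 15 kb and -0.35 and 0.09 for genes over 40 kb, and after UV 0.26 and 0.16 against -0.01 and 0.02. *ECT2*, with a span of 70.8 kb, read 188 and 463 CPM in WT no UV and 95.5 and 343 in KD no UV, but 124 and 164 in WT UV and 177 and 253 in KD UV. *KIF20A*, with 8.61 kb, went the other way in WT cells, as given above, from 60.7 to 39.1 CPM without UV and from 25.7 to 43.0 CPM after UV. Across the 32 genes the UV by time term had a Spearman correlation of -0.71 with span, against -0.35 across all genes, as a description over genes that share the 8 libraries. None of the 32 was called in the UV by time or knockdown by time term, and neither was any of all genes tested. At an unadjusted p under 0.05 (edgeR) there were 0 of the 32 in each, against 2.72 and 0.0561% of all genes. DESeq2 called 0 of the 32 and 0% of all genes in both terms. The median UV by time term of -0.13 over the 32 genes was below the 0.30 over all genes. The knockdown by UV term was less tied to span, with a Spearman correlation of -0.34 and medians of 1.53, 1.18 and 1.21 for genes up to 15 kb, of 15 to 40 kb and over 40 kb, against 0.35, 0.26 and -0.09 over all genes of these spans.

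**Figure D5:**
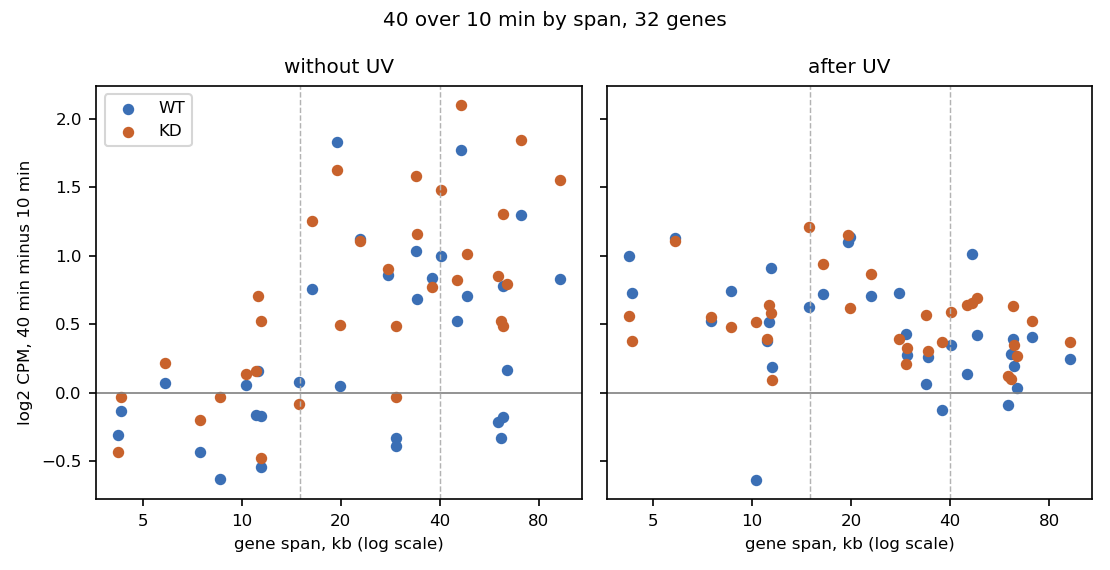
Step from 10 to 40 min of each of the 32 genes, as a difference of log2 CPM, against gene span on a log axis, without UV (left) and after UV (right), in WT (blue) and KD (orange) cells. Dashed lines stand at 15 and 40 kb. Without UV most genes under 15 kb lie near or below 0 and most longer genes above it, whereas after UV nearly all lie above 0 at every span.

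For 4 genes a shorter transcript starting within 200 bases of the longest one split the span into a first and a last part. All reads outside the shorter transcript were assigned to the last part, including any in the bases before its start. In *BIRC5* the reads assigned to the last 2.66 kb gave 3.16 to 8.01 times the density of the first 8.61 kb in the 8 libraries. The ratio was lower at 40 min than at 10 min in each of the 4 pairs. In *BUB1* the reads assigned to the last 4.28 kb gave 1.16 to 2.51 times the density of the first 35.9 kb. That ratio was likewise lower at 40 min in each pair. In *KIF23*, a kinesin of the midzone, the ratio was 0.938 to 1.63, and in *MAD2L1* it was 0.279 to 0.497. These ratios come from counts over whole spans, so reads at the very start and end of a gene cannot be separated from the rest. Reads at the gene start may raise the ratios, which therefore do not place reads at the gene end.

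Further genes of mitosis, of its regulation and of DNA replication and G1/S, from 8 lists that hold none of the 32, were read in the same fit. None was called negative in the knockdown by UV term, and 2 of 15 inner kinetochore and centromere genes, 3 of 20 outer kinetochore and checkpoint genes, 2 of 22 spindle and cytokinesis genes, 3 of 18 genes of the anaphase-promoting complex and securin, 2 of 8 condensin genes, 2 of 13 mitotic entry kinases and phosphatases, 3 of 16 regulators of mitotic transcription and 9 of 30 DNA replication and G1/S genes were called positive. Over all genes 5.04% were called positive, and 704 of 17840 were called negative. List medians were 0.84 to 1.26, against 0.11 over all genes. The DNA replication and G1/S list had the median of 1.26, against 1.30 over the 32 genes. The largest was *NCAPD2*, a condensin subunit, at 407 and 325 CPM in WT no UV, 151 and 193 in WT UV, 132 and 137 in KD no UV, and 370 and 364 in KD UV, with a term of 2.54 ± 0.47 (edgeR, adjusted p = 0.042). *ANAPC11*, a catalytic subunit of the anaphase-promoting complex, had 2.36 ± 0.55, and *MCM5* of the replicative helicase 2.03 ± 0.43 (edgeR, adjusted p = 0.042 for each). Of the regulators named in the background above, *FOXM1* read 38.3 and 49.6 CPM in WT no UV, 20.3 and 29.4 in WT UV, 13.3 and 24.6 in KD no UV, and 25.3 and 38.5 in KD UV, and its term was 1.62 ± 0.43 (edgeR, adjusted p = 0.043). *MYBL2*, the gene of B-MYB, had a term of 1.54 ± 0.43 and *E2F4* one of 1.80 ± 0.45 (edgeR, adjusted p = 0.045 and 0.042). The other called genes taken by the rule of up to 3 per list were *MIS18A*, *HJURP*, *DSN1*, *ZWINT*, *INCENP*, *KIF22*, *TACC3*, *UBE2S*, *PTTG1*, *NCAPH2*, *NEK2*, *PKMYT1*, *POLA2* and *TYMS*, with terms of 1.43 to 2.06. Markers also differed in this term, with a median of 1.42 over 9 fibroblast markers (2 called positive), -0.81 over 7 epithelial markers (1 called negative), -1.39 over 6 endothelial markers (0 called) and -1.43 over 5 immune markers (1 called positive). Epithelial and immune markers were near the *OR51B5* density, as given above. The part of the markers in the result was not tested.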

How the data were processed

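GRO-seq reads of the 8 libraries were aligned by the authors to hg38 with BWA 0.5.9 and handled with SAMtools, per the submitters' processing notes. The authors deposited raw read counts per transcript, with no normalization. Their counter and annotation were not given in the sources used here. Counts covered the whole span, introns included. Among genes lying wholly within another gene, the inner gene had more reads than the outer in 37 of 443 pairs on opposite strands and in 0 of 423 on the same strand, which counts that ignored strand could not give. Samples were grouped by the labels, 1 library per group.

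From these counts, the transcript with the largest span stood for its gene. Genes were filtered with filterByExpr of edgeR 4.0.16 (minimum count 10, minimum total 15), scaled by TMM and tested in R 4.3.3 by the quasi-likelihood F-test, with Benjamini-Hochberg adjustment over all 17840 genes. A gene was called when its adjusted p was below 0.05. The models were time with knockdown by UV, knockdown with UV by time, UV with knockdown by time (3 residual degrees of freedom each) and the additive model (4). Levels were given as CPM with TMM factors, and a prior count of 2 was added for log2 CPM. The code was tested on simulated data. Marker and further gene lists, which hold the named genes by the rule of up to 3 called genes per direction and list, and the 32 genes themselves were chosen with earlier results of these data known. DESeq2 1.42.0, limma-voom (limma 3.58.1), other scalings, filters, backgrounds, transcripts and the removal of each library were tried as alternatives. With 10228672 to 21077842 reads per library, counting error was small for most of the 32 genes, but with 1 library per group the error between cultures is unknown.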

Additional observations from a re-analysis of the deposited data

Results flagged for a closer look

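For 10 of the 32 genes the KD over WT difference was itself different with and without UV by the knockdown by UV term of edgeR, at adjusted p-values of 0.042 to 0.048. Of all 17840 genes tested, 5.04% were called positive in this term. The terms, on the log2 scale, were 2.54 for *KIF20A*, 2.26 for *CDC20*, 2.17 for *AURKB*, 1.99 for *TOP2A*, 1.77 for *PRC1*, 1.76 for *CCNA2*, 1.63 for *KIF2C*, 1.62 for *UBE2C*, 1.60 for *CCNB2* and 1.58 for *NUSAP1*. For each of the 10, KD was below WT in both pairs without UV and above it in both pairs after UV. The same held for 34.1% of all genes tested. The order of the deposited tables splits the libraries in the same way as this term and cannot be told apart from it.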

How the results depend on the processing

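The direction of the knockdown by UV term over the 32 genes held in every alternative tried, with medians of 0.92 to 1.42, but the number of genes called did not. Against 10 called positive, RLE size factors gave 16, DESeq2 18, offsets that follow gene span 21, the shortest transcript of each gene 1, the *OR51B5* density subtracted 0 (median 0.92) and the beta-defensin density subtracted 4. The shares of all genes called positive were 5.04% as reported and 12.4, 14.0, 14.9, 0.721, 0 and 2.38% in these settings. For KD over WT without UV, against 10 called lower, these gave 17, 18 and 21 for RLE, DESeq2 and span offsets, 0 with the *OR51B5* density subtracted (median -0.59) and 16 with scaling on genes of 5 to 100 kb. The shares of all genes called lower were 5.5% as reported and 12.0, 13.4, 14.5, 0 and 11.6% in these settings. The scaling on genes of 5 to 100 kb and the beta-defensin background were chosen after seeing the data. The causes were not tested.

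For KD over WT with UV the median of 0.48 moved to 0.41 under RLE and DESeq2 and to 0.34 under library totals. It was 0.40 under span offsets, 0.35 with the *OR51B5* density subtracted and 0.39 with scaling on genes of 5 to 100 kb. With the 4 UV libraries alone the median was 0.40, with 1 mitotic gene called lower. In that fit 1.57% of all genes were called lower and 0.891% higher. For UV over no UV in WT, DESeq2 called 11 lower and span offsets 3 (7.94 and 2.89% of all genes), and the median was -0.28 with the *OR51B5* density subtracted. For UV over no UV in KD, DESeq2 called 7 higher, span offsets 2 and the 4 KD libraries alone 6 (median 0.63), where 4.49, 0.706 and 4.66% of all genes were called higher, and the median was 0.60 with the *OR51B5* density subtracted. For 40 over 10 min, 1 gene was called under RLE, 4 under DESeq2, 1 with the shortest transcript, 2 under span offsets and 11 with table order as a covariate, where 1.96, 8.54, 2.9, 3.65 and 16.6% of all genes were called higher, and the median was 0.21 with the *OR51B5* density subtracted. The median UV by time term was 0.11 with the *OR51B5* density subtracted and -0.36 with scaling on genes of 5 to 100 kb. The median knockdown by time term was 0.031 under span offsets and 0.036 with that scaling. In the knockdown by UV term *TTK* turned to -0.052 and *SPC24* to -0.15 with the *OR51B5* density subtracted.

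Leaving out each library in turn gave 0 to 15 genes called positive in the knockdown by UV term (0 without each of the 4 KD libraries), with medians of 1.16 to 1.42. Over all genes 0 to 11.3% were called positive in these fits. KD over WT without UV had 0 to 13 called lower (0 without either KD no UV library), with medians of -1.05 to -0.73, where 0 to 8.29% of all genes were called lower. KD over WT with UV had medians of 0.40 to 0.53. UV over no UV had 0 to 3 called lower in WT, with medians of -0.80 to -0.37, where 0 to 5.64% of all genes were called lower. In KD it had 0 to 10 called higher, with medians of 0.59 to 0.83, where 0 to 6.1% of all genes were called higher. For 40 over 10 min 0 to 4 were called, with medians of 0.26 to 0.72, where 0 to 8.49% of all genes were called higher. Medians without 1 library took either sign for UV over no UV (-0.19 to 0.32), KD over WT (-0.42 to 0.03), the UV by time term (-0.65 to 0.37) and the knockdown by time term (-0.26 to 0.84), and *SPC24* lay between -0.19 and 0.69 in the knockdown by UV term. In these fits a group left without its library is read from the others through the model. Table order as a covariate could not be fitted for the knockdown by UV term or its 4 contrasts, since it is the same split. No paired analysis was possible because each group holds 1 library. With 1 library per condition, a difference between cultures and an effect of UV or knockdown cannot be told apart.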
